A study of Homo sapiens with 8 samples.

Results

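The clustered protocadherins are cell surface adhesion proteins encoded by 3 gene clusters, PCDHA, PCDHB and PCDHG, that lie side by side on the long arm of human chromosome 5 in band q31. Members were taken as the protein-coding genes whose symbol is PCDHA, PCDHB or PCDHG followed by a number or by A, B or C, whose counts summed to 10 or more across the 8 libraries. The gene table held 53 such genes and 47 of them reached 10 counts, among 18203 genes that did so in the whole table. These were 11 of 15 PCDHA, 15 of 16 PCDHB and 21 of 22 PCDHG genes, and in the GRCh38 annotation they span chr5:140786136-141512977, all on the plus strand. The genes left out were PCDHA2 with 0 counts, PCDHA6 and PCDHB12 with 2 each, PCDHA7 with 4, PCDHGA3 with 5 and PCDHA3 with 8 in total, and the members nearest to the limit were PCDHA5 with 10, PCDHA8 and PCDHGC5 with 11 each and PCDHGA12 with 13.

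RNA sequencing was performed on 2 non-small cell lung cancer cell lines, NCI-H1581 and NCI-H1703, which are sensitive to the FGFR inhibitor CPL304110, and on the resistant cells derived from each, NCI-H1581R and NCI-H1703R. The resistant cells were selected in rising inhibitor concentrations over 4 to 6 months, from 50 nM up to 2.5 µM for NCI-H1581R and up to 5 µM for NCI-H1703R, so each is 1 selected population and selection cannot be told apart from long culture. Cells of all 4 variants were harvested 24 h after a change of medium. Whether that medium held the inhibitor is not stated, so resistance cannot be told apart from exposure to the inhibitor or its withdrawal. Each variant had 2 replicates from repeated seedings of the same cells, so p-values measure the spread between seedings and not between independent selections. NCI-H1581 and NCI-H1581R were grown in DMEM/F12 and NCI-H1703 and NCI-H1703R in RPMI 1640, so that a difference between the lines cannot be told apart from a difference in medium.

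In the PCDHA and PCDHG clusters each member has a first exon of its own with its own promoter, and this exon is spliced to constant exons that all members of the cluster share. PCDHB members consist largely of a single coding exon with no shared constant part. In neurons each cell is known to use only a few of the alternate members, whose promoters are bound by CTCF and whose silent state is tied to DNA methylation, while the C-type members (PCDHAC1, PCDHAC2, PCDHGC3, PCDHGC4 and PCDHGC5) at the 3′ ends of their clusters follow separate rules. The proteins bind copies of the same combination on neighbouring cells.

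This layout sets how far a member's count can be read. In the reference transcripts, the 53 genes were compared with all genes of the clusters, pseudogenes included. Between 47.8% and 62.6% of the 100-base stretches of a PCDHA gene also occurred in another such gene. The range was 44.3% to 53.7% for PCDHG genes and 0% to 25.6% for PCDHB genes. The deposited values are estimated counts, so for PCDHA and PCDHG the split of reads between members rests in large part on their first exons, whereas the sum over a cluster is less exposed to it. Library totals ran from 33800389 to 40031710 counts. A count of 3, taken here as the floor of detection in a library, corresponded to 0.0749 to 0.0897 CPM, the count scaled to library size. Counts were low for most members: 32 of the 47 stayed under 100 counts in every library.

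The alternate promoters are shown first, since they are what tells the members apart. RefSeq windows (GRCh38.p14, 250 bases before to 50 bases after the start) were found for 47 of the 53 genes. The letters GGCGCT, searched on both strands, were present in 13 of 14 PCDHB, 1 of 13 PCDHA and 8 of 20 PCDHG windows, and in 21.7% of all 35116 promoters. A longer run, GGTGGCGCT, which contains those letters, was read off the windows after they had been seen. It stood in the same 13 PCDHB windows and in 0.501% of all promoters. In the same way TGTCGCT was found in 10 of 13 PCDHA windows (1.76% of all promoters) and CGCCGCTGT in 9 of 20 PCDHG windows (0.604%), and TGTCGCT also stood in 1 PCDHB and 3 PCDHG windows. The core of the CTCF motif, with its variable places free, was present in 1 of the 47 windows and in 2.41% of all promoters. Such an exact search misses sites that depart from the core letters, so it does not show that CTCF sites are absent. The 30-base stretches of the members on which the results below turn are printed 5′ to 3′ with the shared letters in capitals. The first 3 belong to PCDHA1, called in NCI-H1581R, and to PCDHA10 and PCDHA11, leading members of 1 line each. The next 4 belong to PCDHB5, a leading member, and to the 3 PCDHB members called in NCI-H1703R. The last 5 belong to PCDHG members called with resistance or printed for comparison. No window was found for PCDHB6 and PCDHB11.
PCDHA1, chr5:140786087-140786116: ttggccacatgaTGTCGCTgtacaccacaa
PCDHA10, chr5:140855842-140855871: aaagccaccggaTGTCGCTgtcgtccacaa
PCDHA11, chr5:140868884-140868913: ttaggcgcaaggTGTCGCTctttacttggt
PCDHB5, chr5:141135180-141135209: taggacgcctGGTGGCGCTgcaggctaaga
PCDHB8, chr5:141177778-141177807: gaggacccgtGGTGGCGCTgcaggataaga
PCDHB13, chr5:141213866-141213895: gaggacgcgtGGTGGCGCTgcaggataaga
PCDHB16, chr5:141182311-141182340: gagaacgcgtGGTGGCGCTgcaggttaaga
PCDHGB1, chr5:141350028-141350057: aacctctgggCGCCGCTGTcgaccaaaagg
PCDHGB4, chr5:141387620-141387649: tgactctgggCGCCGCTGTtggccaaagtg
PCDHGB5, chr5:141397866-141397895: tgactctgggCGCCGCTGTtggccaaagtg
PCDHGA9, chr5:141402717-141402746: ggactctgagCGCCGCTGTtgatcaactct
PCDHGA10, chr5:141412934-141412963: ggactctgagCGCCGCTGTtcacctactag
The PCDHB8 and PCDHB13 stretches were identical at 29 of 30 bases, against a median of 23 over the 78 pairs of PCDHB stretches. The PCDHGB4 and PCDHGB5 stretches were identical at 30 of 30 bases, against a median of 22 over 36 PCDHG pairs.

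**Figure D1:**
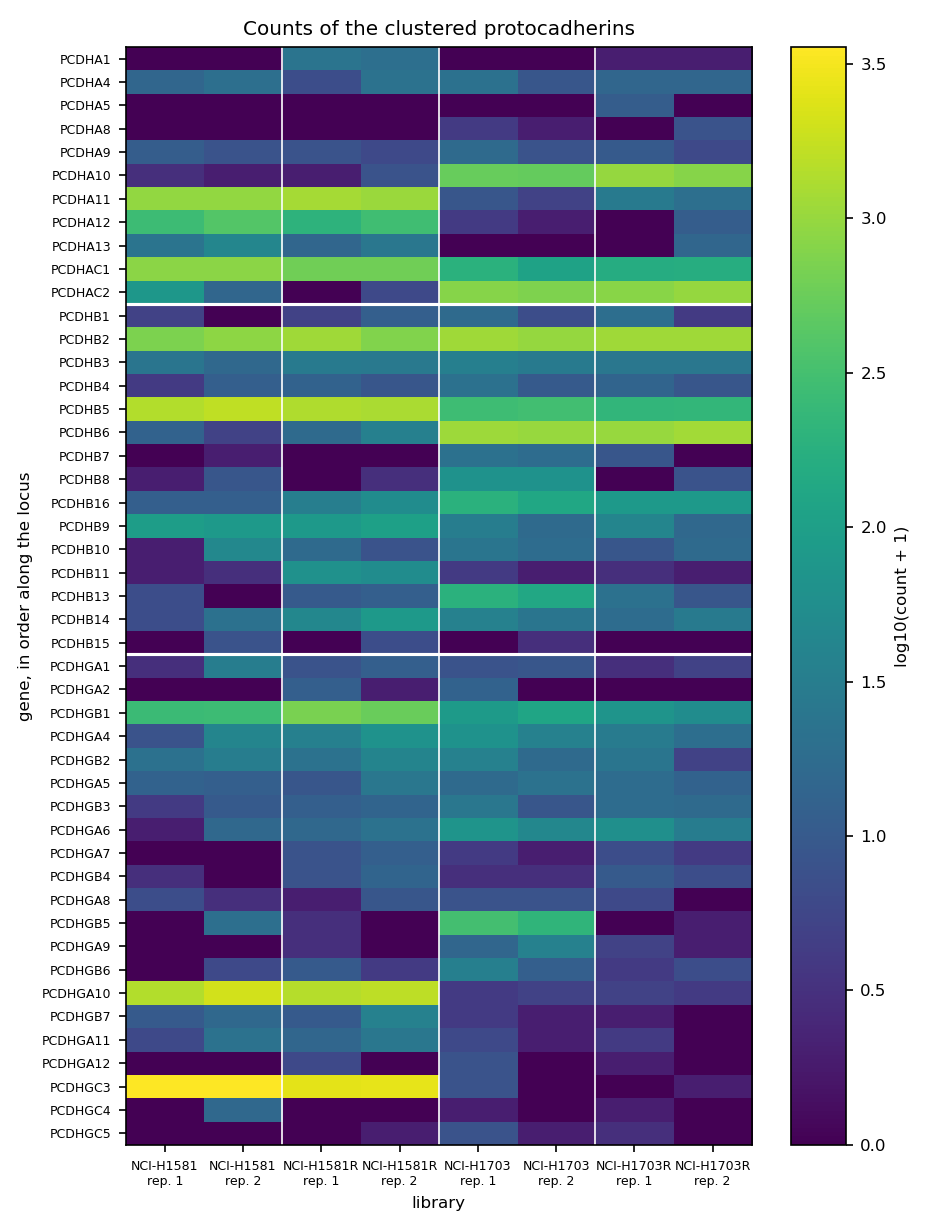
Counts of the 47 members in the 8 libraries. Rows are genes in their order along the locus, white lines separate the PCDHA, PCDHB and PCDHG clusters and the 4 cell line variants, and the colour gives log10(count + 1). In NCI-H1581 and NCI-H1581R the brightest rows are PCDHGC3, PCDHGA10 and PCDHB5, and in NCI-H1703 and NCI-H1703R they are PCDHB2, PCDHB6, PCDHA10 and PCDHAC2.

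The lines differed in their leading members, although PCDHAC1, PCDHB2 and PCDHB5 were among the 3 leading members of their cluster in both. The 3 leading members of PCDHA and of PCDHB were the same genes in a line and its resistant variant. NCI-H1581 expressed PCDHA11 and PCDHAC1, PCDHB5 and PCDHB2, and PCDHGC3 and PCDHGA10. NCI-H1703 expressed PCDHAC2 and PCDHA10, PCDHB6 and PCDHB2, and, at a much lower level, PCDHGB5. A member was counted as detected where both replicates held at least 10 counts, which gave 16 members in NCI-H1581, 21 in NCI-H1581R, 22 in NCI-H1703 and 17 in NCI-H1703R. Only 7 of the 47 were detected in all 4 variants: PCDHAC1, PCDHB2, PCDHB3, PCDHB5, PCDHB9, PCDHB16 and PCDHGB1. The sensitive lines shared 10 detected members, 62.5% of those of NCI-H1581 and 45.5% of those of NCI-H1703. Within a line, 13 members were shared by NCI-H1581 (81.3%) and NCI-H1581R (61.9%), and 14 by NCI-H1703 (63.6%) and NCI-H1703R (82.4%).

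In the PCDHA cluster, PCDHA11 held 936 and 942 counts in NCI-H1581 and 1197 and 1061 in NCI-H1581R, but 8 and 4 in NCI-H1703 and 28 and 19 in NCI-H1703R. PCDHA10 showed the opposite pattern, with 2 and 1 counts in NCI-H1581, 1 and 7 in NCI-H1581R, 531 and 511 in NCI-H1703 and 986 and 804 in NCI-H1703R. The C-type member PCDHAC2 held 76 and 14 counts in NCI-H1581 and 0 and 5 in NCI-H1581R, against 797 and 737 in NCI-H1703 and 838 and 995 in NCI-H1703R. For these 3 genes every library of one line lay above every library of the other. PCDHAC1, the other C-type member, was present in all libraries, with 606 to 874 counts in NCI-H1581 and NCI-H1581R and 110 to 184 in NCI-H1703 and NCI-H1703R. Per kilobase of transcript the leading PCDHA member was PCDHA11 in NCI-H1581 (4.74 CPM per kb) and PCDHAC2 in NCI-H1703 (3.81 CPM per kb).

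In the PCDHB cluster, PCDHB5 held 1380 and 1627 counts in NCI-H1581, 1350 and 1258 in NCI-H1581R, 279 and 295 in NCI-H1703 and 215 and 223 in NCI-H1703R. PCDHB6, its direct neighbour on the chromosome, held 12 and 4, 16 and 34, 1082 and 1007, and 996 and 1162 counts in the same order. PCDHB2 was close to even across the variants, between 702 and 1116 counts in every library. Per kilobase PCDHB5 led in NCI-H1581 and PCDHB6 in NCI-H1703 (9.19 CPM per kb).

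In the PCDHG cluster, the C-type member PCDHGC3 held 3573 and 3577 counts in NCI-H1581 and 2521 and 2648 in NCI-H1581R, and only 7, 0, 0 and 1 in the libraries of NCI-H1703 and NCI-H1703R. It was the most abundant of all members per kilobase in NCI-H1581, at 20.5 CPM per kb. PCDHGA10 held 1412 and 2032 counts in NCI-H1581, 1427 and 1596 in NCI-H1581R and 3 or 4 in each library of NCI-H1703 and NCI-H1703R. The other C-type members of this cluster were close to absent: PCDHGC4 had 15 counts in 1 NCI-H1581 library and 0 or 1 elsewhere, and PCDHGC5 had at most 7 counts in any library.

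Comparison of the sensitive lines used edgeR's quasi-likelihood test over all 18203 genes, with genes called at an adjusted p below 0.1 as in the other comparisons. It called 22 of the 47 members, 12 higher and 10 lower in NCI-H1703, or 46.8%, against 62.9% of all genes tested (32.5% higher and 30.4% lower; 62.7%, 32.2% and 30.5% with the replicate block). The share lay below the background, and no test of that was made. By cluster the counts were 2 higher and 4 lower of 11 PCDHA members, 6 higher and 2 lower of 15 PCDHB members and 4 higher and 4 lower of 21 PCDHG members. The log2 fold change of NCI-H1703 over NCI-H1581 was -9.89 ± 0.34 for PCDHGC3 (SE, adjusted p = 2.15e-07), whose lower group held 7 and 0 counts so that the value ran from -14.76 without NCI-H1703 replicate 1 (the largest shift with a library left out). It was -8.82 ± 0.33 for PCDHGA10 (adjusted p = 3.41e-07) and -7.20 ± 0.33 for PCDHA11 (adjusted p = 1.56e-06). It was 7.07 ± 0.31 for PCDHB6 (adjusted p = 1.55e-06), and PCDHA10 was 364-fold higher in NCI-H1703 (95% counting interval 124 to 1766, from 1042 counts against 3). PCDHB2 differed by only 0.45 ± 0.12 (adjusted p = 0.0164).

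**Figure D2:**
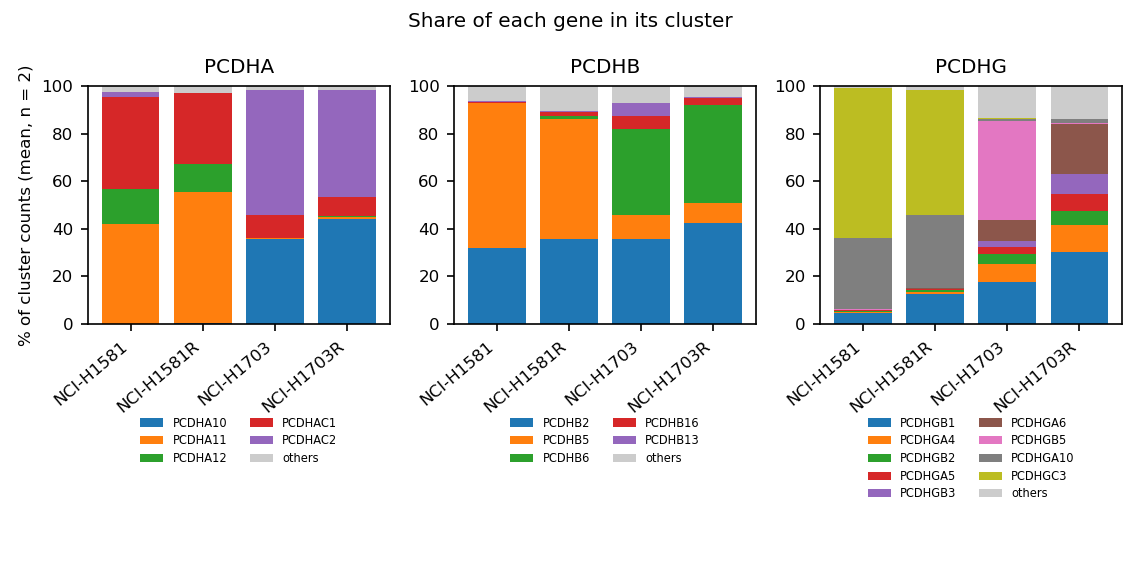
Share of each gene in the counts of its cluster. Bars give the mean percentage of 2 replicates for each cell line variant, for genes that reach 5% in some variant, with all other members in grey. PCDHA11, PCDHAC1 and PCDHA12 fill most of the PCDHA bar in NCI-H1581 and NCI-H1581R, whereas PCDHAC2 and PCDHA10 do so in NCI-H1703 and NCI-H1703R, and PCDHGB5 takes 41.7% of PCDHG counts in NCI-H1703 and 0.316% in NCI-H1703R.

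The shares show how narrow the choice was. The 3 leading members took 94.4% and 96.4% of PCDHA counts, 97.0% and 95.5% of PCDHB counts and 98.7% and 96.5% of PCDHG counts in the 2 NCI-H1581 libraries. In NCI-H1703 they took 96.8% and 98.5% of PCDHA and 80.0% and 83.5% of PCDHB counts, but only 64.9% and 70.9% of PCDHG counts, where 9 and 7 members were needed to reach 90%. PCDHA11 made up 41.8 ± 0.87% of PCDHA counts in NCI-H1581 and 55.2 ± 4.46% in NCI-H1581R (SD, n = 2). PCDHA10 made up 35.5 ± 2.16% in NCI-H1703 and 43.9 ± 6.16% in NCI-H1703R. PCDHGC3 made up 62.9 ± 6.01% of PCDHG counts in NCI-H1581 and 52.4 ± 0.15% in NCI-H1581R.

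The summed level of each cluster moved much less than its most changed members did. Of the sums, that of PCDHG moved the most. Summed PCDHA was 61.4 ± 5.92 CPM in NCI-H1581, 53.1 ± 1.93 in NCI-H1581R, 41.7 ± 0.70 in NCI-H1703 and 53.8 ± 0.25 in NCI-H1703R (SD, n = 2). Summed PCDHB was 67.2 ± 0.90, 67.0 ± 8.63, 82.4 ± 1.65 and 69.3 ± 2.33 CPM in the same order. Summed PCDHG was 155 ± 3.97 and 128 ± 0.74 CPM in NCI-H1581 and NCI-H1581R, but 17.5 ± 2.57 and 5.42 ± 1.76 CPM in NCI-H1703 and NCI-H1703R. The PCDHG sum thus separated the lines by -3.15 on the log2 scale and fell by a further 1.69 between NCI-H1703 and NCI-H1703R, with no overlap between the groups. These sums carry no test. In NCI-H1581R the PCDHA and PCDHG sums stood at log2 ratios of -0.21 and -0.28 to NCI-H1581, and without the C-type members the ratios were 0.04 and 0.09. In NCI-H1703R the PCDHA sum stood at 0.37 and the PCDHB sum at -0.25.

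**Figure D3:**
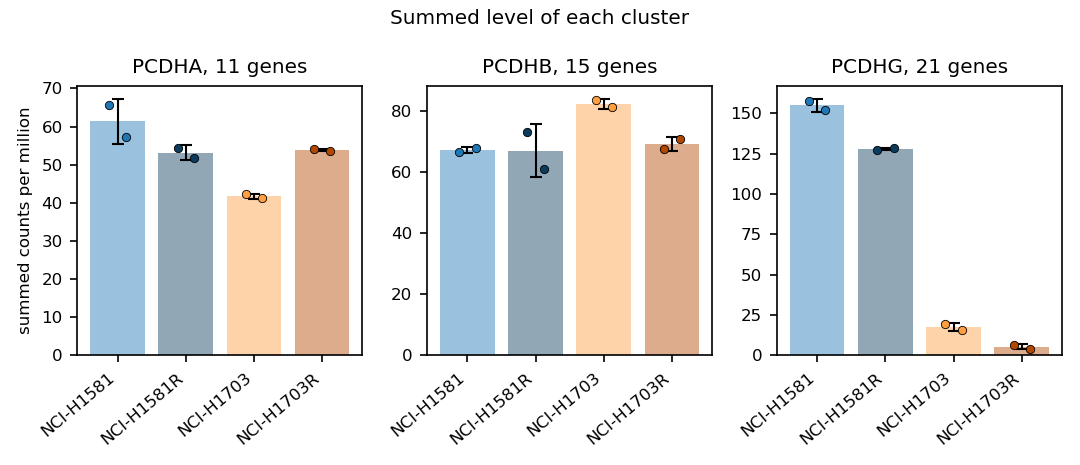
Summed level of each cluster in CPM. Bars are means of 2 replicates, error bars are SD and points are the single libraries of each cell line variant. PCDHG falls from 155 CPM in NCI-H1581 to 17.5 in NCI-H1703 and 5.42 in NCI-H1703R, while PCDHA stays between 41.7 and 61.4 and PCDHB between 67.0 and 82.4.

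In NCI-H1581R, PCDHB11, PCDHGB1 and PCDHA1 rose and no member passed the test for a fall. These 3 made up 6.38% of the 47 members, against 15.1% of all genes tested (7.63% higher and 7.44% lower), so the share lay below the background. At an unadjusted p below 0.05, 6 members were higher and 3 lower, and the median log2 fold change of the 47 was 0.45 against 0.04 for all genes. The share of all genes at an unadjusted p below 0.05 is not given here, so such counts, also below, are descriptions. Of the 47 members, 9 reached the limit of 10 counts only through the variant in which they were highest (PCDHA1, PCDHA5, PCDHA8, PCDHB7, PCDHB15, PCDHGA9, PCDHGA12, PCDHGC4 and PCDHGC5), so for both lines neither the median nor the counts over members stand as support for a direction.

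PCDHB11 showed the clearest rise. It held 1 and 2 counts in NCI-H1581 and 62 and 53 in NCI-H1581R, a 36.7-fold difference (95% counting interval 12.3 to 181, log2 fold change 5.10 ± 0.77, adjusted p = 0.00417). In NCI-H1703 and NCI-H1703R it stayed at 1 to 3 counts, so NCI-H1581R was the single variant in which it was detected. PCDHGB1 held 265 and 271 counts in NCI-H1581 and 688 and 546 in NCI-H1581R, and its log2 fold change was 1.15 ± 0.24 (adjusted p = 0.0310). Its level in NCI-H1581R was 16.1 ± 3.12 CPM (SD, n = 2), and its share of PCDHG counts was 4.72 ± 0.38% in NCI-H1581 and 12.6 ± 2.51% in NCI-H1581R. PCDHA1, the first gene of the locus, had 0 counts in both NCI-H1581 libraries and 22 and 19 in NCI-H1581R, and with the floor of 3 counts per library in place of 0 it was at least 6.51-fold higher (adjusted p = 0.0797). With 2 counts outside NCI-H1581R it entered the test only through the variant in which it was high, so its call is a description. Up to 2719 bases of PCDHA1 overlap an antisense gene, and the strand setting of the counting is not given in the sources used here, so its reads may include that gene. The same holds for 1797 bases of PCDHB2, 815 of PCDHB16, 554 of PCDHGB1, 501 of PCDHB5 and 447 of PCDHA10, and for up to 592 bases of 11 other members.

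Several members lay close to the threshold in NCI-H1581R. PCDHB14 held 6 and 20 counts against 43 and 79 (log2 fold change 2.17 ± 0.67, adjusted p = 0.102). The 3 C-type members with over 10 counts in both NCI-H1581 libraries all had lower counts in the resistant cells. PCDHGC3 held 3573 and 3577 against 2521 and 2648 (-0.53 ± 0.16, adjusted p = 0.103), PCDHAC1 874 and 866 against 608 and 606 (-0.58 ± 0.19, adjusted p = 0.122), and PCDHAC2 76 and 14 against 0 and 5 (-4.17 ± 1.42, adjusted p = 0.115). With the replicate number as a block, 6 members were called, PCDHB14 (adjusted p = 0.0579) as a rise and PCDHGC3 (adjusted p = 0.0977) and PCDHAC2 (adjusted p = 0.0548) as falls besides the 3 above, against 18.1% of all genes (9.21% higher and 8.88% lower). DESeq2 called 7 (14.9% of the 47), adding PCDHAC1 to these. The share of all genes that DESeq2 called is not given here, so the 7 is a description. For PCDHAC2 the level in NCI-H1581 rested on replicate 1, and without it the log2 fold change was -2.38.

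The leading members of NCI-H1581 outside the C-type genes were not called. PCDHA11 differed by 0.21 ± 0.19 (adjusted p = 0.574), PCDHB5 by -0.26 ± 0.17 (adjusted p = 0.419), PCDHB2 by 0.17 ± 0.24 (adjusted p = 0.732) and PCDHGA10 by -0.23 ± 0.18 (adjusted p = 0.514) on the log2 scale.

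In NCI-H1703R most calls were falls, in PCDHB and PCDHG. PCDHGB5, PCDHB13, PCDHB8, PCDHB16 and PCDHGA9 fell and PCDHA10 rose. The 6 members were 12.8% of the 47, against 14.7% of all genes tested (7.06% higher and 7.67% lower). The median log2 fold change was -0.46 over the 47 and 0 over all genes.

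PCDHGB5 was the leading PCDHG member of NCI-H1703. It held 311 and 209 counts in NCI-H1703 and 0 and 1 in NCI-H1703R, a 559-fold difference (95% counting interval 99.9 to 22122, log2 fold change -8.76 ± 0.67, adjusted p = 0.00155). PCDHGA9, which starts 4831 bases downstream of PCDHGB5 and is the next member on the chromosome, held 14 and 36 counts in NCI-H1703 and 4 and 1 in NCI-H1703R (-3.33 ± 1.01, adjusted p = 0.0981), and like PCDHA1 it entered the test only through its highest variant. PCDHGB6, the next member after that, held 33 and 11 against 3 and 6 (-2.33 ± 0.84, adjusted p = 0.161). PCDHGB4, whose printed promoter stretch is identical to that of PCDHGB5, held 2 and 2 counts in NCI-H1703 and 9 and 6 in NCI-H1703R and was not called. PCDHGB1 held 86 and 120 against 67 and 53 (-0.86 ± 0.37, adjusted p = 0.232), which left it the leading PCDHG member of NCI-H1703R at 30.1 ± 4.92% of the cluster.

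In the PCDHB cluster the 3 members that fell were outside the leading ones. PCDHB13 held 185 and 135 counts in NCI-H1703 and 20 and 8 in NCI-H1703R (log2 fold change -3.57 ± 0.44, adjusted p = 0.00891). PCDHB8 held 63 and 64 against 0 and 7 (-4.21 ± 0.77, adjusted p = 0.0262), a size that rests on 1 library, since the value was -9.02 without NCI-H1703R replicate 2 and -3.23 without replicate 1. Of the 2651 stretches of 100 bases in the PCDHB8 transcript, 534 also occur in PCDHB13, so the counts of these 2 genes are not fully independent, and their promoter stretches printed above differ at 1 base. PCDHB16 held 188 and 132 against 81 and 81 (-1.05 ± 0.26, adjusted p = 0.0695). The leading members did not pass the test: PCDHB6 differed by -0.03 ± 0.12 (adjusted p = 0.942), PCDHB2 by 0.03 ± 0.10 (adjusted p = 0.920) and PCDHB5 by -0.47 ± 0.18 (adjusted p = 0.195).

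In the PCDHA cluster, PCDHA10 rose, with 531 and 511 counts in NCI-H1703 and 986 and 804 in NCI-H1703R (log2 fold change 0.71 ± 0.15, adjusted p = 0.0463), while PCDHAC2 did not pass the test (0.18 ± 0.12, adjusted p = 0.447). PCDHA11, low in this line, held 8 and 4 against 28 and 19 (1.88 ± 0.66, adjusted p = 0.152). With the replicate number as a block, 15 members were called, 4 PCDHA members higher and 5 PCDHB and 6 PCDHG members lower, 31.9% of the 47 against 34.9% of all genes (18.2% higher and 16.7% lower). These added PCDHA5, PCDHA11 and PCDHA13 as higher and PCDHB5, PCDHB7, PCDHGA2, PCDHGA4, PCDHGB1 and PCDHGB6 as lower, and PCDHA5 (0 and 0 counts against 10 and 0), PCDHA13 (0 and 0 against 0 and 14) and PCDHGA2 (12 and 0 against 0 and 0) rested on 1 library each. DESeq2 called the same 6 members as the fit without the block, and its share over all genes is not given here.

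**Figure D4:**
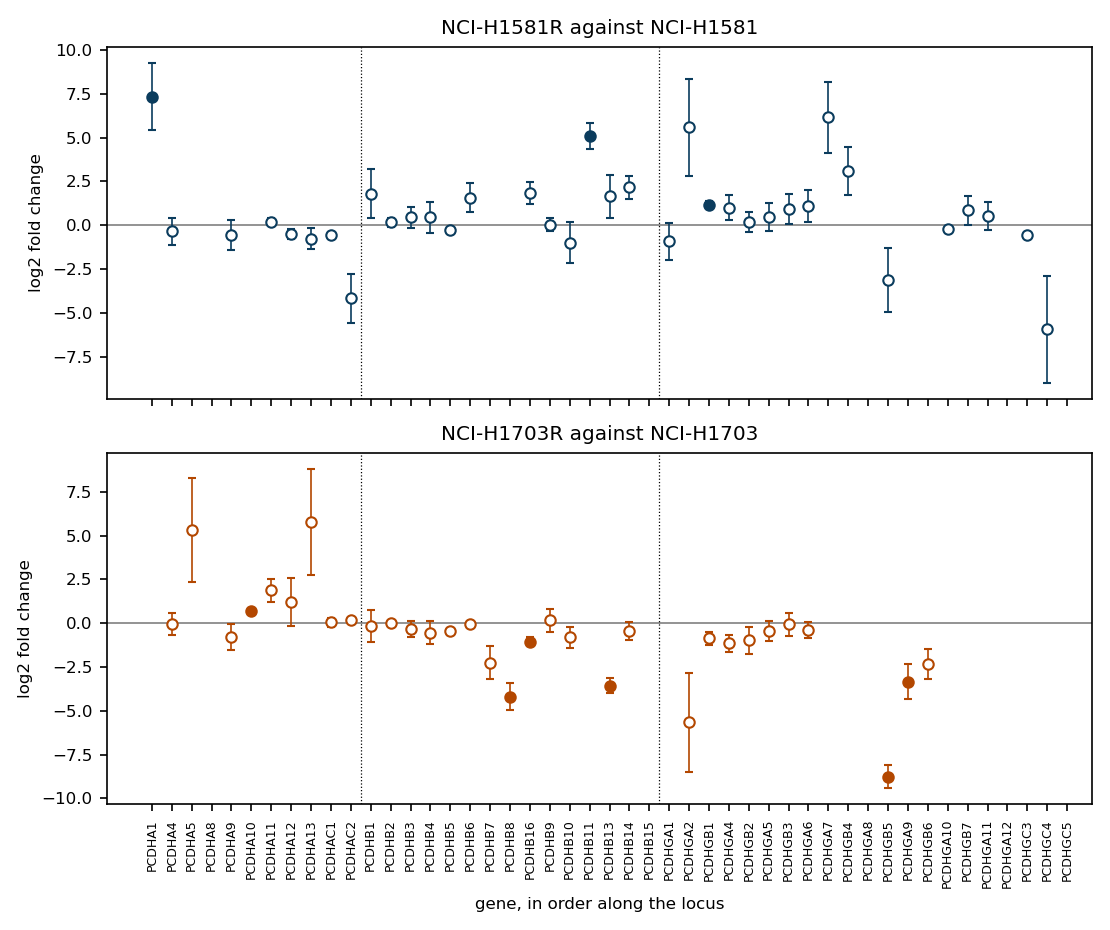
Log2 fold change of each member with resistance, in order along the locus. The upper panel compares NCI-H1581R with NCI-H1581 and the lower panel NCI-H1703R with NCI-H1703. Bars are standard errors, filled points have an adjusted p below 0.1 and only members with at least 10 counts in some library of the line are drawn. The filled points are PCDHA1, PCDHB11 and PCDHGB1 above zero in the upper panel, and PCDHA10 above and PCDHB8, PCDHB16, PCDHB13, PCDHGB5 and PCDHGA9 below zero in the lower panel.

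The single libraries bear on these calls. Leaving out each library in turn, PCDHB11 in NCI-H1581R and PCDHGB5 in NCI-H1703R were called in 4 of 4 fits. PCDHA1 and PCDHGB1 were called in 2 of 4, losing the call without either NCI-H1581 replicate (adjusted p = 0.114 and 0.142 for PCDHA1 and 0.194 and 0.285 for PCDHGB1). PCDHB13 and PCDHB8 were called in 2 of 4, losing it without either NCI-H1703 replicate (0.129 and 0.114 for PCDHB13 and 0.178 and 0.198 for PCDHB8). PCDHA10 was called in 1 of 4 fits, the one without NCI-H1703R replicate 2, and PCDHB16 and PCDHGA9 in 0 of 4. No member changed direction. The log2 fold change ran from -11.04 to -7.91 for PCDHGB5, from -4.37 to -3.06 for PCDHB13 and from -4.55 to -2.41 for PCDHGA9.

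**Figure D5:**
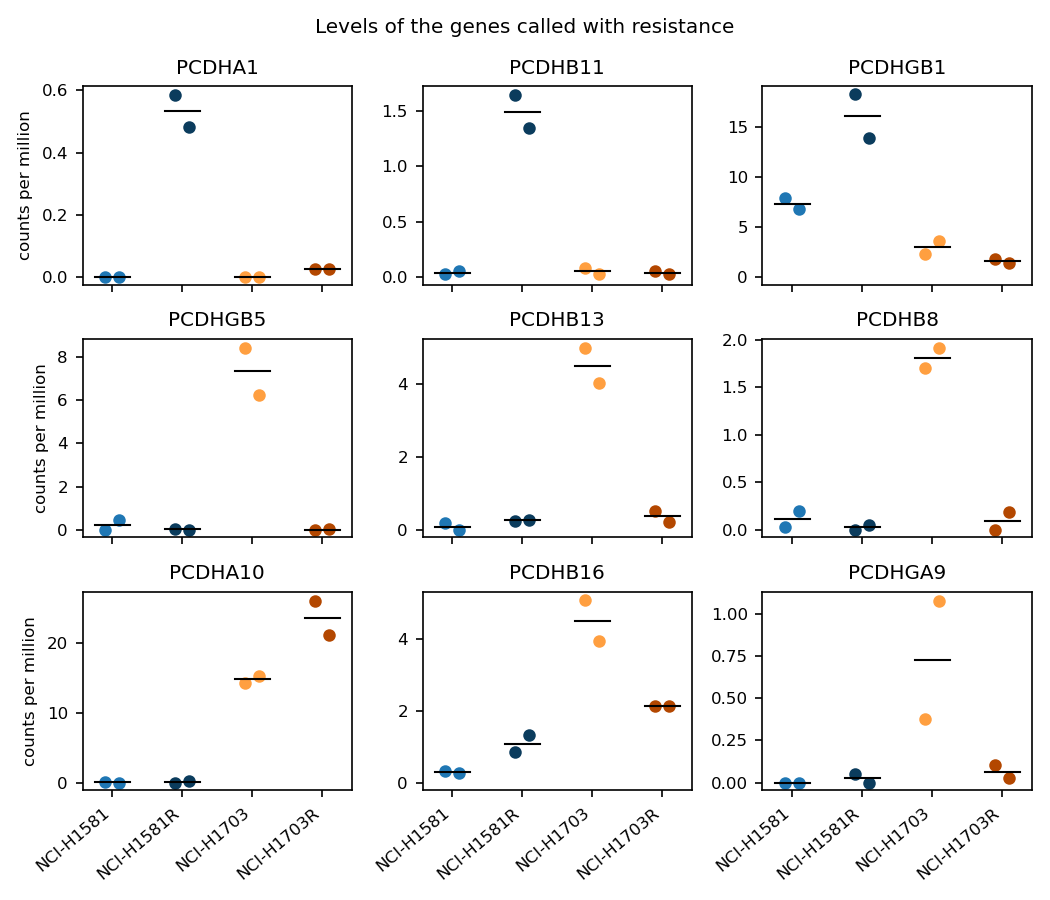
Levels of the 9 genes called with resistance in either line. Points are single libraries in CPM, horizontal lines are means of 2 replicates and each panel has its own linear axis. PCDHA1, PCDHB11 and PCDHGB1 are highest in NCI-H1581R, PCDHGB5, PCDHB13, PCDHB8, PCDHB16 and PCDHGA9 are highest in NCI-H1703, and PCDHA10 is highest in NCI-H1703R.

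The lines were next compared in their response. None of the 9 members called in either resistant variant was called in both, by edgeR or by DESeq2, and with the replicate block 1 was, PCDHGB1, as a rise in NCI-H1581R and a fall in NCI-H1703R. Over all genes 3.38% were called in both lines by edgeR, 4.4% by DESeq2 and 7.59% with the block, and the 0 is a description. The difference itself, tested as an interaction over all 8 libraries, was called for 6 members (12.8%, against 15.4% of all genes, 6.93% in the positive and 8.47% in the negative direction), and for 8 with the replicate block (18.9% of all genes, 8.73% positive and 10.1% negative). The change in NCI-H1703R minus that in NCI-H1581R was -2.03 ± 0.43 for PCDHGB1 (adjusted p = 0.0199), -2.94 ± 0.62 for PCDHB16 (adjusted p = 0.0201) and -5.24 ± 1.39 for PCDHB13 (adjusted p = 0.0427). It was -5.57 ± 1.65 for PCDHB11 (adjusted p = 0.0462), -2.65 ± 0.85 for PCDHB14 (adjusted p = 0.0941) and 4.33 ± 1.31 for PCDHAC2 (adjusted p = 0.0676). DESeq2 did not call PCDHB14 (adjusted p = 0.115). With a library left out, the value ran from 2.52 (without NCI-H1581 replicate 1) to 8.65 (without NCI-H1581R replicate 2) for PCDHAC2, and from -9.91 (without NCI-H1581 replicate 1) to -4.14 (without replicate 2) for PCDHB13. PCDHB16 illustrates the contrast, with 11 and 11 counts in NCI-H1581 and 32 and 52 in NCI-H1581R, but 188 and 132 in NCI-H1703 and 81 and 81 in NCI-H1703R. For PCDHGB5 the difference was not called (adjusted p = 0.512), its counts in NCI-H1581 being 0 and 19.

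Genes outside the clusters were examined by lists. Among 22 regulators of promoter choice and chromatin (CTCF, the cohesin complex and its loaders, DNA methyltransferases, TET demethylases, SMCHD1 and others), STAG2, a cohesin subunit, was the 1 gene that rose in NCI-H1581R (0.75 ± 0.18 on the log2 scale, adjusted p = 0.0504), and 0 were called lower, with 1 lower by DESeq2 and 1 at an unadjusted p below 0.05. That gene was CTCF, with 76.5 ± 13.7 CPM in NCI-H1581 and 48.7 ± 7.49 in NCI-H1581R (adjusted p = 0.122, and 0.0514 with the replicate block). Over all genes 7.63% were called higher and 7.44% lower. With the replicate block 2 of the 22 were higher and 1 was lower, against 9.21% higher and 8.88% lower over all genes. Beside STAG2, SMCHD1 was called higher (0.52 ± 0.22, adjusted p = 0.216, and 0.0918 with the block). In NCI-H1703R the cohesin subunit RAD21 (-0.51 ± 0.11, adjusted p = 0.0525) and the 5-methylcytosine oxidase TET3 (-0.74 ± 0.10, adjusted p = 0.0120) fell, and the cohesin subunit SMC1A rose (0.43 ± 0.10, adjusted p = 0.0594). Over all genes 7.06% rose and 7.67% fell in NCI-H1703R. With the replicate block 1 of the 22 was higher and 5 were lower there, against 18.2% higher and 16.7% lower over all genes. CTCF was among the 5 (-0.29 ± 0.15, adjusted p = 0.298, and 0.0187 with the block). SMCHD1 was too (-0.18 ± 0.09, adjusted p = 0.276, and 0.0653 with the block). The list's medians were 0.09 in NCI-H1581R and -0.05 in NCI-H1703R, against 0.04 and 0 for all genes.

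Of 16 cytoplasmic partners and processing enzymes, which include the WAVE complex that PCDHA and PCDHG cytoplasmic parts can bind and the proteases that cleave protocadherins, 2 rose and 1 fell in NCI-H1581R. WASF3, a WAVE protein, rose, with 53 and 62 counts in NCI-H1581 and 634 and 745 in NCI-H1581R (a log2 difference of 3.53 ± 0.27, adjusted p = 0.000502), and CYFIP2 rose from 267 and 396 to 1021 and 1045 (1.59 ± 0.21, adjusted p = 0.00535). CYFIP1, a paralogue of CYFIP2, fell (-0.52 ± 0.16, adjusted p = 0.0944). Over all genes 7.63% rose and 7.44% fell. In NCI-H1703R edgeR called 0 of the 16, against 14.7% of all genes. DESeq2 called 1, and 2 had an unadjusted p below 0.05. With the replicate block 6 of the 16 were called, against 34.9% of all genes.

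Of the non-clustered protocadherins, related genes outside the 3 clusters, 3 of 9 tested rose and 2 fell in NCI-H1581R. Over all genes 7.63% were called higher and 7.44% lower. PCDH11X had 3 and 16 counts in NCI-H1581 and 1445 and 1640 in NCI-H1581R (a log2 difference of 7.27 ± 0.38, adjusted p = 0.000127), though its close Y-linked copy may share reads. PCDH19 rose from 13 and 29 to 588 and 534 (adjusted p = 0.000548) and PCDH10 from 20 and 28 to 259 and 283 (adjusted p = 0.00221). PCDH17 fell from 6452 and 7910 to 2386 and 2787 (-1.53 ± 0.17, adjusted p = 0.00228), and PCDH7 fell by 0.81 ± 0.16 on the log2 scale (adjusted p = 0.0268). In NCI-H1703R only PCDH1 of the 9 was called, as a rise of 0.30 ± 0.09 (adjusted p = 0.0970), against 14.7% of all genes. PCDH10, near absent from NCI-H1581, was the most counted of these genes in NCI-H1703, with 8654 and 8741 counts.

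Of 34 tested genes that flank the clusters within 1 Mb, 11 were called higher and 1 lower in NCI-H1703R, against 7.06% higher and 7.67% lower over all genes, with a median of 0.21 against 0. PCDH1 is 1 of the 11, and the fall was that of SPRY4, an inhibitor of receptor tyrosine kinase signalling, from 3592 and 2921 counts to 398 and 513. TAF7, which lies between the PCDHB and PCDHG clusters, held 5719 and 5580 counts in NCI-H1703 and 6382 and 7129 in NCI-H1703R (0.18, adjusted p = 0.342). DIAPH1, just beyond the PCDHG cluster, held 10073 and 9825 against 9036 and 9878 (-0.15, adjusted p = 0.428). With the replicate block 18 of the 34 were higher and 2 lower, TAF7 being called higher (adjusted p = 0.0498) and DIAPH1 lower (adjusted p = 0.0903). Over all genes the block gave 18.2% higher and 16.7% lower. For the resistant cells of this line, the paper reports DNA copy number changes on parts of the chromosome that carries the clusters. Whether those parts include this locus is not stated there. The bearing of copy number on these genes and on the members was not tested. In NCI-H1581R 2 of the 34 were lower and 0 higher by edgeR and by DESeq2, with 4 higher at an unadjusted p below 0.05. Over all genes edgeR called 7.44% lower and 7.63% higher. Between the sensitive lines 24 of the 34 were higher and 3 lower in NCI-H1703, against 32.5% higher and 30.4% lower over all genes. Their median log2 fold change was 1.13 there, against 0.04 for all genes, and its bearing on the members was not tested.

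The cell lines were also checked for markers of other cells. Leukocyte (3 genes) and endothelial (2 genes) markers summed to at most 0.425 and 0.449 CPM in any library, with CD3E and CDH5 under 3 counts in every library. The summed level of 8 epithelial and lung tumour markers was 41.0 to 42.6 CPM in NCI-H1581, 83.0 to 105 in NCI-H1581R, 75.3 to 76.1 in NCI-H1703 and 8.21 to 8.80 in NCI-H1703R. The last step was that of KRT18, from 2380 and 2188 counts to 109 and 94. Neuronal and neuroendocrine markers (8 genes, TUBB3 and MAP2 among them) summed to 420 to 866 CPM over the libraries and mesenchymal markers (5 genes, VIM among them) to 2662 to 9150. These markers moved with the variants, and their part in the protocadherin results was not tested.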

How the data were processed

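The members and gene lists were chosen with earlier results of these data known. RNA was extracted from 4 cell line variants, 2 replicates each, and sequenced on an Illumina platform. The authors trimmed reads with cutadapt, quantified them with Salmon against GRCh38 and summed them to genes with tximport, and deposited estimated counts as whole numbers. Versions, annotation, count scaling and strandedness are not given in the sources used here. Gene names, positions and transcript lengths came from GENCODE (GRCh38), where all 53 genes were matched by Ensembl identifier.

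Genes with at least 10 counts in total were tested with edgeR 4.0.16 (R 4.3.3, TMM scaling, quasi-likelihood test, two-sided), separately in the 4 libraries of each comparison and in all 8 for the interaction, with Benjamini-Hochberg adjustment over all 18203 genes and calls below 0.1. Alternatives were DESeq2 1.42.0, other scaling, filters and dispersions, a joint fit, a replicate block and leaving out each library. The test was checked on simulated counts. CPM used TMM library sizes. Intervals are exact and cover counting error only.

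Per the methods the procedure was repeated to give replicate 2. Whether variants with equal replicate numbers were run together is not stated, and the replicate block takes it as given. Replicate differences correlated across 10419 genes between sensitive and resistant cells (r = 0.254 for the NCI-H1581 pair, 0.555 for the NCI-H1703 pair), and between lines at 0.0339 (sensitive) and -0.558 (resistant). No replicates were duplicates (chi-square per degree of freedom 103 for NCI-H1581R and 24.6 to 33.9 for the other variants). Genes were named by rule: the leading member per kilobase of each cluster and variant, members called with resistance or in the interaction, the largest rise and fall, the C-type members, and up to 4 of each list. Other members, SMCHD1 and the flanking genes TAF7 and DIAPH1 were named after their values were seen.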

Additional observations from a re-analysis of the deposited data

Results flagged for a closer look

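For 6 members the change with resistance differed between the lines by a test of the difference itself (edgeR interaction over 8 libraries). As the log2 change in NCI-H1703R minus that in NCI-H1581R, the values were -2.03 for PCDHGB1, -2.94 for PCDHB16, -5.24 for PCDHB13, -5.57 for PCDHB11, -2.65 for PCDHB14 and 4.33 for PCDHAC2. Leaving out each of the 8 libraries in turn, PCDHB16 was called in 8 fits, PCDHGB1 in 7, PCDHB13 in 6, PCDHB11 in 3 and PCDHB14 and PCDHAC2 in 1 each. PCDHGB1 lost its call without NCI-H1703 replicate 2 (adjusted p = 0.115).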

How the results depend on the processing

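All 37 fold changes of named members kept their direction under each other setting tried (228 values, of which 5 lost a call and 19 gained one) and with each library left out (180 values, of which 41 lost a call and 5 gained one). Counts of called members moved more. For settings other than the replicate block no share of all genes called stands beside them, so they are descriptions. In NCI-H1581R, 3 members became 7 with DESeq2, 6 with the replicate block and 10 in a single fit of all 8 libraries, and 1 to 7 with a library left out, 1 without NCI-H1581 replicate 1. In NCI-H1703R, 6 became 15 with the block, 2 where every library had to hold 10 counts, and 1 to 4 with a library left out, 1 without either NCI-H1703 replicate. Under the same stricter filter, which tests fewer genes, the sensitive lines gave 7 and the interaction 2. With a library left out these gave 20 to 26 and 2 to 6. The replicate block changed no other call of a member named by the rule beyond those given in the report. A lone sample was assumed to vary like the other groups.

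Without C-type members the log2 ratios of the PCDHA sum were 0.040 (NCI-H1581R, reversed), 0.68 (NCI-H1703R) and -1.20 (NCI-H1703 to NCI-H1581), and those of the PCDHG sum 0.093 (NCI-H1581R, reversed) and -1.72 (between the sensitive lines). With only members at 10 counts in every library of a line, the sensitive lines differed by 0.048 for PCDHA and -0.58 for PCDHB, both reversed, and by -0.99 for PCDHG, and NCI-H1703R differed by -0.13 for PCDHB and -0.78 for PCDHG. RLE scaling gave 0.26 for PCDHB between the sensitive lines. Per kilobase the shares were 43.2% for PCDHA11 and 64.8% for PCDHB5 in NCI-H1581, 55.2% for PCDHB5 in NCI-H1581R, 40.7% for PCDHB6 in NCI-H1703 and 37.7% for PCDHB2 in NCI-H1703R. With 1 mismatch allowed, 9 member promoters held the CTCF core letters (32.9% of all promoters). With a library left out, the PCDHB ratio in NCI-H1581R ran from -0.14 to 0.12 and the PCDHG ratio in NCI-H1703R from -2.07 to -1.39. Beyond the members each setting leaves out, the cause was not tested. Depth limits the 32 members under 100 counts in every library.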

Other observations

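Some genes of the locus outside the rule, which are not annotated as protein-coding members, also differed between the lines. PCDHA14 held 0 counts in all 4 NCI-H1581 and NCI-H1581R libraries, 69 and 57 in NCI-H1703 and 56 and 77 in NCI-H1703R. PCDHB17P held 0, 0, 5 and 1 counts in NCI-H1581 and NCI-H1581R, 106 and 42 in NCI-H1703 and 88 and 73 in NCI-H1703R. The other 4 pseudogenes had at most 6 counts in any library.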
